A study of Xenopus laevis with 36 samples.

Results

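The genes described here handle arginine and the polyamines made from it in healing skin of the frog *X. laevis*. They were taken from the count table by name: a row was a member when its symbol, in lower case and without the final .L or .S that marks the subgenome copy, was arg1, arg2, nos2, odc1, ass1, asl, slc7a1, slc7a2, sat1 or azin1. This gave 15 rows of 42257 with a gene name, covering 9 of the 10 genes, since the rule took no row for slc7a2. All 15 reached 0.5 CPM (counts scaled to library size) in at least 10 libraries and were among the 28225 rows tested.

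Juvenile outbred wild-type frogs received a 2 mm biopsy-punch wound and, 3 days post wounding (dpw), a subcutaneous injection. It was 1 µg of recombinant *X. laevis* CSF1 (rCSF1) or IL34 (rIL34), the ligands of the macrophage growth factor receptor, or an equal volume of rctrl. The rctrl was the matching preparation from insect Sf9 cells carrying an empty vector. Bulk RNA from the wounds was sequenced at both 7 and 14 dpw, and each of the 6 groups (rCSF1, rIL34 and rctrl on either day) has 6 libraries. The wounds of every group carried the injection, so that no unwounded or uninjected skin is among these libraries.

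Arginine is shared by competing enzymes. Arginase splits it into ornithine and urea, and inducible nitric oxide synthase turns it into nitric oxide and citrulline, a contrast by which mammalian macrophages are often described. Ornithine decarboxylase then makes putrescine, the first polyamine, whose products spermidine and spermine bind nucleic acids and are in demand in growing tissue, while spermidine/spermine acetyltransferase marks polyamines for breakdown and export.

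Library totals lay between 22435798 and 34868292 counts with a median of 29370148. Replicates 2 and 5 of rCSF1 at 7 dpw stood apart from the other libraries. Their summed fibroblast markers (12 rows) were at 1885 and 2324.5 CPM, against 9390 to 14677 CPM in the group's other 4, and their epidermal markers (11 rows) at 11388 and 8742 CPM against 4330 to 7414 CPM. Replicates 1, 2 and 6 of rCSF1 at 14 dpw held skeletal muscle transcripts (15 rows), at 2476, 2848 and 23826.5 CPM, against 72.0 to 106 CPM in the other 3. Liver, where arginase serves the urea cycle, was close to absent: the 15 rows of 8 liver markers had median sums of 2.42 to 4.08 CPM over the 6 groups. Levels below are TMM-normalized CPM, which are not corrected for transcript length, so levels were not compared between genes or between L and S copies, and reads of the copies can be shared. Differences are given as log2 fold changes (log2FC) with adjusted p from edgeR's quasi-likelihood test. Their standard errors (SE) were derived from that test, as the size of the log2FC over the square root of its F statistic. In bulk RNA, fewer cells of a type and less RNA per cell cannot be told apart.

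*arg1.L*, the only row of arginase 1, lies on chromosome 5L from 72664179 to 72675497 in the Xenopus_laevis_v10.1 assembly. Its lowest, median and highest CPM at 14 dpw were 25.6, 40.4 and 134 after rCSF1, 28.9, 47.7 and 97.0 after rIL34, and 20.3, 34.3 and 76.2 in rctrl wounds. At 7 dpw they were 278, 562 and 3148 after rCSF1, 82.4, 217 and 594 after rIL34, and 136, 372 and 533 in rctrl wounds. The medians at 7 dpw thus ran from rCSF1 through rctrl to rIL34, and all 3 at 14 dpw were below all 3 at 7 dpw. In rCSF1 and in rctrl wounds every 14 dpw library was below every 7 dpw library, and in rIL34 wounds the ranges overlapped through 7 dpw replicate 1.

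The fall of *arg1.L* by 14 dpw was a log2FC of -4.38 after rCSF1 (SE 0.59, adjusted p = 4.4e-07), -2.35 after rIL34 (SE 0.54, adjusted p = 0.00063) and -3.09 in rctrl wounds (SE 0.56, adjusted p = 2.6e-05) by edgeR's quasi-likelihood test. The difference between the rCSF1 and rctrl falls was -1.29 (adjusted p = 0.22) and that between the rIL34 and rctrl falls 0.74 (adjusted p = 0.52), so neither passed. Without rCSF1 replicates 2 and 5 the rCSF1 fall was -2.98 (adjusted p = 1.4e-05).

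**Figure D1:**
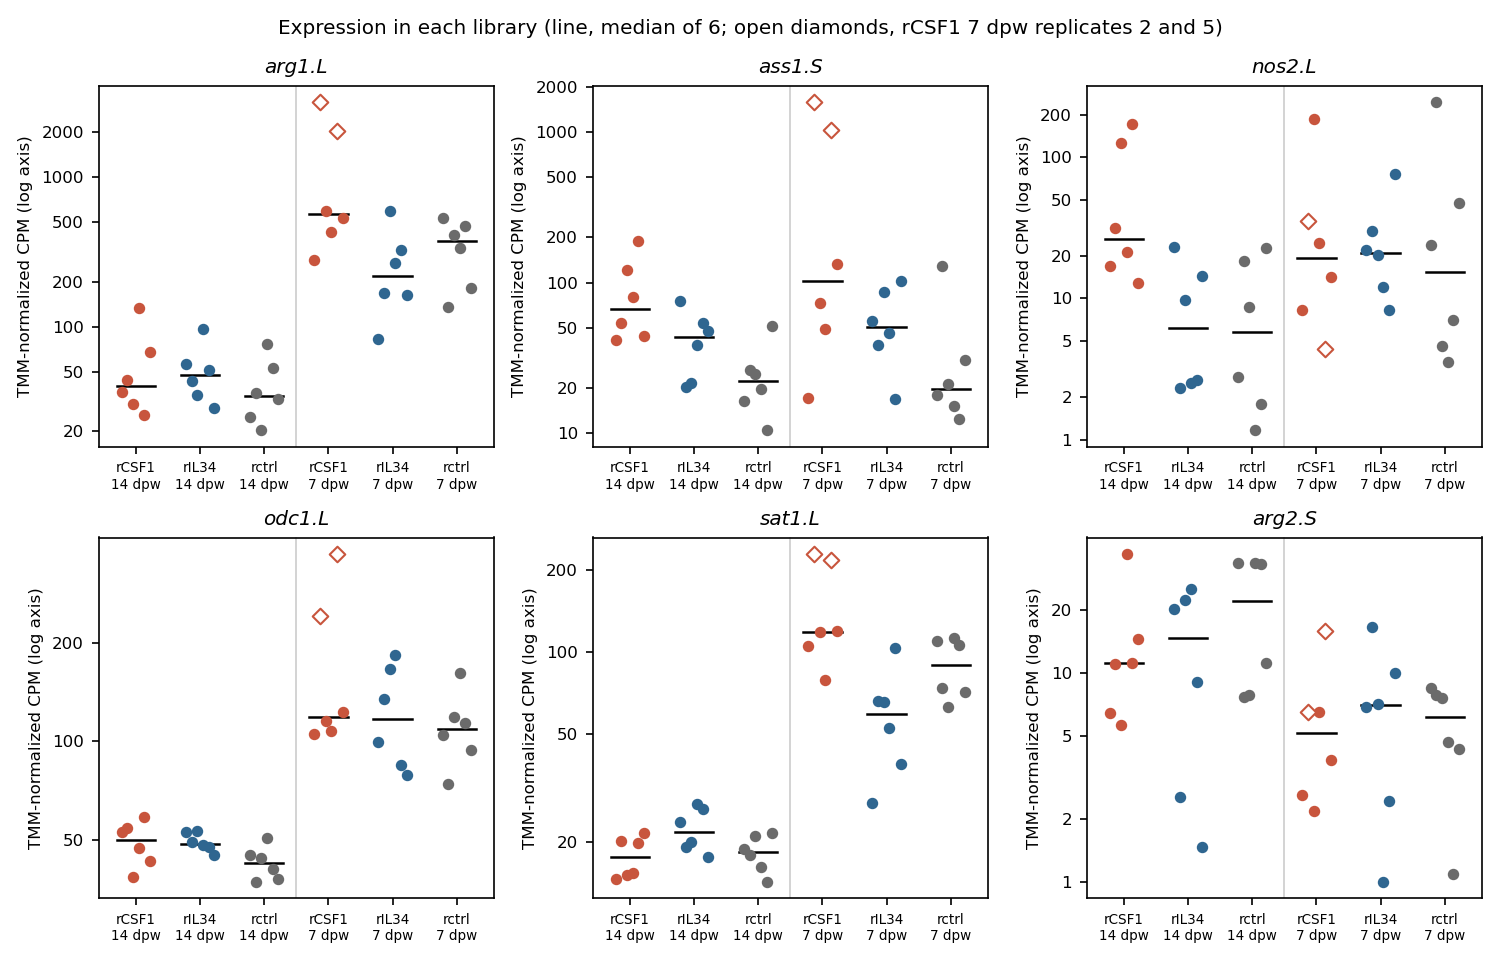
TMM-normalized CPM (log axis) of 6 members in each of the 36 libraries, with 14 dpw left of 7 dpw; points are libraries, lines are medians of 6 and open diamonds are rCSF1 replicates 2 and 5 at 7 dpw. The 6 libraries of *odc1.L* at 14 dpw lie below all 6 at 7 dpw in each treatment, and the diamonds stand above the other 4 rCSF1 libraries in *arg1.L* and *ass1.S*.

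Across the members, 14 dpw wounds differed from 7 dpw wounds in one direction with 1 exception. After rCSF1, 8 of the 15 were lower and 0 higher at 14 dpw, beside 30.4% of all tested genes that were lower and 23.9% that were higher (54.3% in either direction). After rIL34, 7 were lower and 0 higher, beside 27.1% lower and 20.4% higher (47.5% in either direction). In rctrl wounds 8 were lower and 1 was higher, beside 26.4% lower and 22.9% higher (49.3% in either direction). Counted in either direction the members passed about as often as all tested genes. Counted as falls they passed more often, a difference that was not tested. The falls may not be independent, since L and S copies can share reads. Those after rIL34 were *arg1.L* and both copies of odc1, azin1 and sat1. The rCSF1 count includes *asl.L* and *ass1.S*, which did not pass without the 7 dpw libraries that stood apart. The rctrl count includes *nos2.L* and *asl.L*, which did not pass without the rctrl 7 dpw library highest in both. The members' median log2FC was -0.58 after rCSF1, -0.56 after rIL34 and -0.58 in rctrl wounds, against medians over all tested genes of -0.06, -0.05 and -0.01.

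**Figure D2:**
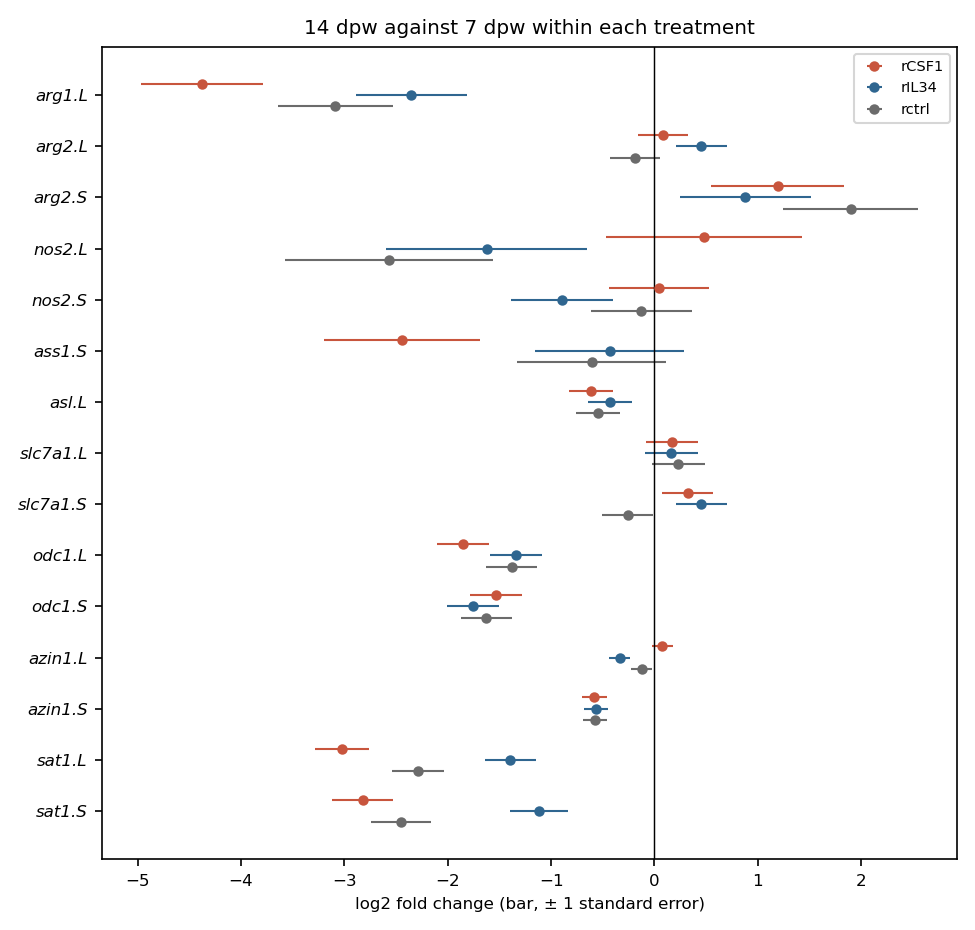
Log2FC of each member at 14 against 7 dpw, with bars of 1 SE, after rCSF1 and rIL34 and in rctrl wounds. Both copies of *odc1* and of *sat1* and *arg1.L* lie below 0 in all 3 treatments, and *arg2.S* lies above 0.

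Arginase 2, the mitochondrial enzyme, did not follow arginase 1. *arg2.L* had medians of 8.95, 10.7 and 10.5 CPM at 14 dpw after rCSF1, after rIL34 and in rctrl wounds, and 9.86, 8.16 and 11.9 CPM at 7 dpw. Its 36 values stayed between 4.32 and 20.2 CPM, and the log2FC values at 14 against 7 dpw were 0.08, 0.45 and -0.19 (adjusted p = 0.78, 0.12 and 0.54). *arg2.S* was the one member that was higher at 14 dpw, in rctrl wounds, with lowest, median and highest CPM of 7.64, 22.1 and 33.6 at 14 dpw and 1.10, 6.14 and 8.43 at 7 dpw. The ranges overlapped in 2 libraries of 14 dpw, and the log2FC was 1.90 (SE 0.65, adjusted p = 0.016). After rCSF1 it was 1.19 (adjusted p = 0.12) and after rIL34 0.88 (adjusted p = 0.26). Without rCSF1 replicate 5 at 7 dpw, at 15.9 CPM, the rCSF1 value was 1.72 (adjusted p = 0.033). With the L and S copies summed, arg2 in rctrl wounds had a log2FC of 0.82 (adjusted p = 0.041).

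Ornithine decarboxylase, the enzyme that commits ornithine to polyamines, fell in every treatment. *odc1.L* (chromosome 5L, 149419168 to 149425673) had lowest, median and highest CPM at 14 dpw of 38.5, 50.01 and 58.7 after rCSF1, 44.9, 48.7 and 53.0 after rIL34, and 37.2, 42.4 and 50.7 in rctrl wounds. At 7 dpw they were 105, 119 and 373 after rCSF1, 79.0, 117 and 184 after rIL34, and 74.1, 109 and 162 in rctrl wounds. No 14 dpw library reached any 7 dpw library, and the log2FC values were -1.85 (SE 0.25, adjusted p = 5.1e-07), -1.34 (SE 0.25, adjusted p = 5.5e-05) and -1.38 (SE 0.25, adjusted p = 2.6e-05). How many of all tested genes separate the days without overlap was not counted, here or for other rows.

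*odc1.S* had medians of 6.08, 6.70 and 5.89 CPM at 14 dpw after rCSF1, after rIL34 and in rctrl wounds, and 16.4, 19.2 and 16.3 CPM at 7 dpw. Its groups did not overlap between the days either, and the log2FC values were -1.53, -1.76 and -1.63 (adjusted p = 7.5e-06, 1.4e-06 and 2.5e-06). Between treatments on the same day, only *odc1.L* in rCSF1 against rctrl at 7 dpw passed the test among the odc1 comparisons in edgeR. Antizyme inhibitor 1, which frees ornithine decarboxylase from the antizyme that sends it to degradation, differed between its copies. *azin1.S* fell in all 3 treatments, with log2FC values of -0.58 after rCSF1, -0.56 after rIL34 and -0.58 in rctrl wounds (adjusted p = 0.00012, 0.0002 and 0.00012). *azin1.L* fell after rIL34, by 0.34 on the log2 scale (adjusted p = 0.0069), and had log2FC values of 0.07 after rCSF1 and -0.12 in rctrl wounds (adjusted p = 0.55 and 0.32). Its 36 values spanned 36.2 to 66.8 CPM.

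The polyamine acetyltransferase had the lowest adjusted p of the members at 14 against 7 dpw after rCSF1 and in rctrl wounds. *sat1.L* (chromosome 2L, 43660984 to 43665084) had lowest, median and highest CPM at 14 dpw of 14.6, 17.6 and 21.5 after rCSF1, 17.6, 21.8 and 27.4 after rIL34, and 14.2, 18.3 and 21.5 in rctrl wounds. At 7 dpw these were 79.0, 118 and 229 after rCSF1, 27.7, 59.0 and 103 after rIL34, and 62.5, 89.5 and 112 in rctrl wounds. The days did not overlap in any treatment, although rIL34 replicate 1 at 7 dpw, at 27.7 CPM, was close to the highest rIL34 library at 14 dpw. The log2FC values were -3.03 (SE 0.26, adjusted p = 3.4e-10), -1.40 (SE 0.25, adjusted p = 2.8e-05) and -2.29 (SE 0.25, adjusted p = 8.6e-09).

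*sat1.S* was lower at 14 dpw as well, by log2FC values of -2.82 after rCSF1, -1.11 after rIL34 and -2.46 in rctrl wounds (adjusted p = 7.3e-09, 0.0015 and 3.1e-08). Its lowest, median and highest CPM after rIL34 were 7.07, 8.97 and 17.6 at 14 dpw and 9.67, 22.8 and 31.6 at 7 dpw, and those of rctrl wounds 4.70, 5.59 and 6.80 at 14 dpw and 23.0, 31.0 and 36.1 at 7 dpw. The days overlapped after rIL34 and not in rctrl wounds. In edgeR with all libraries this was the one member whose change over time differed between a cytokine and rctrl: the rIL34 effect at 14 dpw less that at 7 dpw was 1.34 on the log2 scale (SE 0.39, adjusted p = 0.016), beside 7.55% of all tested genes that were higher in that test (18.4% in either direction). Leaving out each library in turn gave 1.10 to 1.48 (adjusted p = 0.0088 to 0.039). For *sat1.L* the same difference was 0.89 (adjusted p = 0.068), and it passed in DESeq2 at 0.92 (adjusted p = 0.047), in voom at 0.92 (adjusted p = 0.011), in the compared groups alone at 0.90 (adjusted p = 0.042) and without rIL34 replicate 5 at 7 dpw at 1.13 (adjusted p = 0.015). Without rIL34 replicate 1 at 7 dpw *slc7a1.S* passed as well, at 0.99 (adjusted p = 0.028). None of the 15 passed the corresponding test for rCSF1 in edgeR, DESeq2 or voom, and 16.1% of all tested genes passed it in edgeR. An unadjusted p under 0.05 in edgeR was reached by 2 members and by 9056 of all 28225 tested genes. Over all tested genes DESeq2 called 5599 and voom 2421.

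Markers of leukocytes fell between the days as well. The macrophage markers (13 rows of 10 listed genes, none found for mpeg1 and cd163) summed to 164 to 358 CPM at 14 dpw and 453 to 1026 CPM at 7 dpw after rCSF1, to 122 to 274 and 761 to 1345 CPM after rIL34, and to 109 to 214 and 669 to 881 CPM in rctrl wounds. Of the 12 tested, 9 were lower after rCSF1, 10 after rIL34 and 11 in rctrl wounds. The neutrophil markers (11 rows of 7 genes, with *lyz.L* at 0 in every library) summed to 126 to 254 CPM at 14 dpw and 717 to 10719.5 CPM at 7 dpw after rCSF1, to 120 to 431 and 813 to 1204 CPM after rIL34, and to 89.3 to 185 and 579 to 1001 CPM in rctrl wounds. Of the 10 tested, 10, 7 and 10 were lower. The highest sum, in rCSF1 replicate 2 at 7 dpw, came mostly from the copies of 1 gene, with *mmp8.L* at 5653 CPM and *mmp8.S* at 4849 CPM. Of 12 T cell marker rows, 7 were lower after rCSF1, 2 after rIL34 and 12 in rctrl wounds, and 0 were higher. The proliferation markers (16 tested) differed in direction, with 9 higher and 0 lower after rCSF1, 0 higher and 16 lower after rIL34, and 0 higher and 4 lower in rctrl wounds. Of 11 epidermal rows 1 was higher and 5 lower after rCSF1, 0 and 5 after rIL34, and 9 and 1 in rctrl wounds. Of 12 fibroblast rows 5 were higher and 0 lower after rCSF1, 0 and 2 after rIL34, and 1 and 1 in rctrl wounds. Of 15 skeletal muscle rows 15, 1 and 0 were higher and 0 lower. The part of these cells and of proliferation in the falls of *arg1.L*, odc1 and sat1 was not tested.

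At 7 dpw, rCSF1-administered wounds had 4 members higher than rctrl wounds and 0 lower, beside 20.4% of all tested genes that were higher and 14.1% that were lower (34.5% in either direction). These were *arg1.L*, *ass1.S*, *odc1.L* and *sat1.L*, and the members' median log2FC was 0.14 against -0.03 over all tested genes. *arg1.L* had a log2FC of 1.76 (SE 0.53, adjusted p = 0.0097) with overlapping ranges, and 4 of the 6 rCSF1 libraries were above the highest rctrl library. *odc1.L* had one of 0.68 (SE 0.25, adjusted p = 0.031) and *sat1.L* one of 0.70 (SE 0.24, adjusted p = 0.025).

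*ass1.S* encodes argininosuccinate synthase, which takes up citrulline in the first step of remaking arginine. RefSeq places it on chromosome 8L, from 8977702 to 9031749, although its symbol ends in S, and no L row of this gene was found by the rule. Its lowest, median and highest CPM at 7 dpw were 17.1, 103 and 1578 after rCSF1, 16.7, 51.0 and 102 after rIL34, and 12.4, 19.6 and 129 in rctrl wounds. The rctrl maximum was replicate 2, and the next rctrl library was at 30.6 CPM. The log2FC of rCSF1 over rctrl was 3.67 (SE 0.80, adjusted p = 0.00067).

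These 4 rises rested on rCSF1 replicates 2 and 5. In those libraries *arg1.L* was at 3148 and 2042 CPM, against 278 to 589.5 CPM in the other 4, and *ass1.S* at 1578 and 1034 CPM, against 17.1 to 133 CPM. *odc1.L* was at 242 and 373 CPM against 105 to 123 CPM, and *sat1.L* at 229 and 217 CPM against 79.0 to 119 CPM. *asl.L*, the lyase that completes the remaking of arginine, was also highest in both, at 88.7 and 61.4 CPM against 28.4 to 39.2 CPM, but its comparison with rctrl did not pass (log2FC 0.32, adjusted p = 0.24).

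Without both replicates the 4 no longer passed in edgeR: *arg1.L* was at 0.38 (adjusted p = 0.65), *ass1.S* at 0.83 (adjusted p = 0.38), *odc1.L* at -0.01 (adjusted p = 0.98) and *sat1.L* at 0.21 (adjusted p = 0.60) on the log2 scale. With all libraries kept, voom with sample quality weights called 0 and a fit to the compared groups alone called 1, where over all genes they called 6253 and 5096, against 9748 in the 6-group model. Left out alone, rCSF1 replicate 2 left 1 call and replicate 5 left 2, and rctrl replicates 2 and 6 each left 2. Neutrophil markers were split in the 2 libraries. *mmp8.L*, the neutrophil collagenase, was at 5653 and 4406 CPM against 32.2 to 597 CPM in the other 4, while *mpo.L* was at 70.1 and 112 CPM against 220 to 669 CPM and *cebpe.L*, a regulator of granulocyte maturation, at 0.725 and 2.08 CPM against 8.36 to 17.9 CPM. Their macrophage sums were 453 and 597 CPM against 546 to 1026 CPM, and the part of any cell type in these values was not tested.

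The homeologs of odc1 did not move together in these libraries. *odc1.S* was at 18.5 and 15.5 CPM in replicates 2 and 5, inside the 11.2 to 31.4 CPM of the other 4, and its rCSF1 comparison with rctrl had a log2FC of -0.02 (SE 0.24, adjusted p = 0.96). The ratio of *odc1.L* to *odc1.S* reached 24.0 in this group, beside highest ratios of 7.25 after rIL34 and 7.89 in rctrl wounds at 7 dpw. By contrast *sat1.S*, at 79.2 and 63.6 CPM in the 2 libraries, was above the 21.3 to 35.4 CPM of the others, with a log2FC of 0.50 against rctrl (adjusted p = 0.16).

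**Figure D3:**
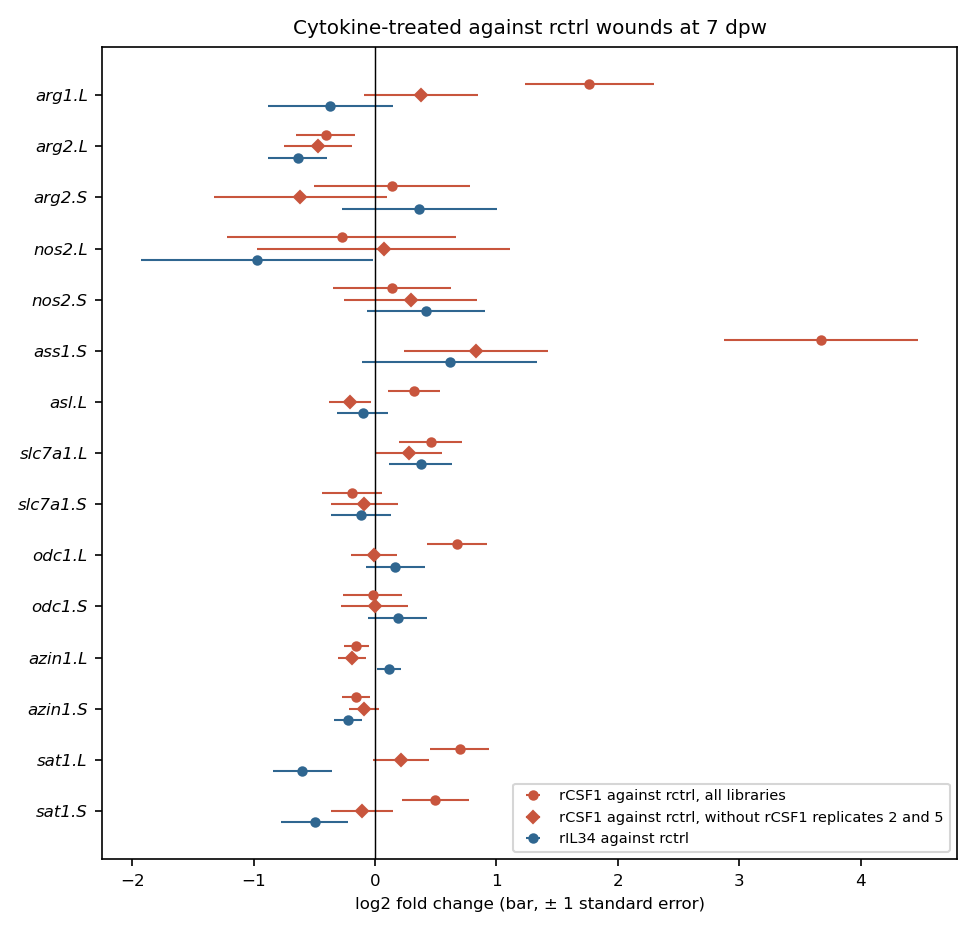
Log2FC of each member at 7 dpw, with bars of 1 SE, for rCSF1 against rctrl with all 6 rCSF1 libraries and without replicates 2 and 5, and for rIL34 against rctrl. The rCSF1 values of *arg1.L* and *ass1.S* move from 1.76 and 3.67 to 0.38 and 0.83 when both replicates are left out.

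rIL34-administered wounds had 0 of 15 members past edgeR's test against rctrl at 7 dpw, beside 27.0% of all tested genes. At an unadjusted p under 0.05 there were 2, DESeq2 called 2 and voom called 3. Over all 28225 tested genes these counts were 10798, 8475 and 9078. The nearest members were *arg2.L*, with a log2FC of -0.64 (SE 0.24, adjusted p = 0.0503), and *sat1.L*, with -0.60 (SE 0.24, adjusted p = 0.064). *arg1.L* was at -0.37 (SE 0.51, adjusted p = 0.63) and *odc1.L* at 0.17 (SE 0.24, adjusted p = 0.65). The members' median was -0.10, against -0.01 over all tested genes. DESeq2 and the fit with replicate numbers as a block each called both genes, and voom called *sat1.L*, *sat1.S* and *azin1.S*.

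Between the cytokines at 7 dpw, 4 members were higher after rCSF1 than after rIL34 and 0 lower, beside 9.35% of all tested genes that were higher and 8.05% that were lower (17.4% in either direction). The log2FC values were 2.13 for *arg1.L* (adjusted p = 0.0067), 3.06 for *ass1.S* (adjusted p = 0.0073), 1.30 for *sat1.L* (adjusted p = 0.00093) and 1.00 for *sat1.S* (adjusted p = 0.013). All 4 were in the directions of the values in replicates 2 and 5. Without both, *sat1.L* was the one that passed, at 0.86 (adjusted p = 0.024), and *arg1.L* was at 0.79 (adjusted p = 0.33), *ass1.S* at 0.25 (adjusted p = 0.85) and *sat1.S* at 0.44 (adjusted p = 0.32). The lowest *sat1.L* library after rCSF1, at 79.0 CPM, was above 5 of the 6 rIL34 libraries. A fit to the 2 groups alone called 0 of them and voom 1, but over all genes these called 5 and 2086, against 4910 in the 6-group model. The members' median was 0.23, against 0.01 over all tested genes. These comparisons share libraries with the comparisons against rctrl.

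At 14 dpw the cytokines left no member past edgeR's test. The counts were 0 for rCSF1 against rctrl, where 0.953% of all tested genes passed, 0 for rIL34 against rctrl, where 0.0496% passed, and 0 for rCSF1 against rIL34, where 1.24% passed. In each comparison 2 members had an unadjusted p under 0.05, beside 3098, 2252 and 3788 of all 28225 tested genes. DESeq2 called 0 members in each, beside 541, 184 and 768 of all tested genes. The members called by voom were 0, 0 and 1, beside 91, 131 and 797 of all tested genes. The members' medians were 0.20, 0.06 and 0.09 on the log2 scale, against 0.01, 0.004 and -0.01 over all tested genes. Among single members, *sat1.S* after rIL34 had all 6 libraries above the highest rctrl library, with 7.07 to 17.6 CPM against 4.70 to 6.80 CPM, a log2FC of 0.84 (SE 0.28, adjusted p = 0.30). *ass1.S* had a median of 67.0 CPM after rCSF1 and 22.1 CPM in rctrl wounds at 14 dpw, a log2FC of 1.84 (SE 0.74, adjusted p = 0.33), and it was at 2.40 without the 3 libraries with muscle transcripts (adjusted p = 1.00). Without those libraries only 4 of all 28225 tested genes passed, against 269 with all libraries, so that adjusted p does not show a lack of difference.

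Inducible nitric oxide synthase spread widely within groups, but other members spread more in some of them. After rCSF1 at 7 dpw the highest library over the lowest was 42.5 for *nos2.L* and 92.1 for *ass1.S*. After rIL34 at 7 dpw it was 9.16 for *nos2.L* and 16.4 for *arg2.S*. *nos2.L* (chromosome 2L, 47916978 to 47947184) had lowest, median and highest CPM at 14 dpw of 13.0, 26.5 and 172 after rCSF1, 2.34, 6.19 and 23.0 after rIL34, and 1.17, 5.75 and 22.9 in rctrl wounds. At 7 dpw they were 4.40, 19.3 and 187 after rCSF1, 8.26, 21.1 and 75.7 after rIL34, and 3.57, 15.4 and 244 in rctrl wounds. Single libraries set the maxima, with the next highest at 35.1, 30.2 and 47.4 CPM in the 3 groups at 7 dpw. In rctrl wounds it was lower at 14 dpw, with a log2FC of -2.57 (SE 1.00, adjusted p = 0.033). After rCSF1 it was at 0.48 (adjusted p = 0.69) and after rIL34 at -1.62 (adjusted p = 0.17). Without rctrl replicate 2 at 7 dpw the rctrl value was -0.90 (adjusted p = 0.44), and it also did not pass with voom, with the compared groups alone or without any 1 of rctrl replicates 1, 3, 4 and 5 at 14 dpw. At 14 dpw rCSF1 over rctrl was at 2.77 (SE 1.01, adjusted p = 0.25) and rCSF1 over rIL34 at 2.80 (SE 1.01, adjusted p = 0.19). *nos2.S* was between 0.200 and 4.10 CPM in all libraries and passed in no comparison.

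*nos2.L* was set beside *ass1.S*, whose enzyme takes up citrulline in the first step of remaking arginine. In 5 of the 6 groups the library with the most *nos2.L* was also the one with the most *ass1.S*. In rctrl wounds at 7 dpw this was replicate 2, with 244 CPM of *nos2.L*, 129 CPM of *ass1.S* and 56.1 CPM of *asl.L*, the highest of the group in each, and 136 CPM of *arg1.L*, the lowest. After rCSF1 at 14 dpw it was replicate 5, with 172 CPM of *nos2.L* and 189 CPM of *ass1.S*. The exception was rCSF1 at 7 dpw, where replicate 3 had 187 CPM of *nos2.L* and 73.0 CPM of *ass1.S*. Over the 36 libraries, as deviations of log2(CPM + 0.5) from the group means, Pearson's r was 0.40 (permutation p = 0.038, adjusted p = 0.17) and Spearman's rho 0.48 (permutation p = 0.0062, adjusted p = 0.10), so the relation did not pass the correction. This r was positive within 5 of the 6 groups. *arg1.L* against *nos2.L* had r = -0.42 (rho -0.48, permutation adjusted p = 0.12 and 0.10), negative within all 6 groups, and did not pass either. The library with the most *nos2.L* was the one with the least *arg1.L* in 2 of the 6 groups.

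Of 105 pairs of members compared in this way, 6 passed after adjustment by Pearson's r, 5 of them positive, and of these 6 only *nos2.L* with *nos2.S* also passed by Spearman's rho. *ass1.S* and *asl.L*, the consecutive enzymes of arginine recycling, had r = 0.71 (rho 0.48, permutation adjusted p = 0.029 and 0.10), and 0.55 without the 2 libraries farthest from the median. *nos2.L* and *nos2.S* had r = 0.68 (rho 0.62, adjusted p = 0.0084 and 0.034), and it was positive within all 6 groups, at 0.46 to 0.94. *sat1.L* and *sat1.S* had r = 0.67 (rho 0.56, adjusted p = 0.029 and 0.070). Reads of L and S copies can be shared, and *nos2.S* was at only 0.200 to 4.10 CPM over all libraries. The part of shared reads in the nos2 and sat1 correlations was not tested. *arg1.L* had r = 0.59 with *sat1.L* and 0.60 with *sat1.S* (adjusted p = 0.040 for each r, and rho 0.58 and 0.46 with adjusted p = 0.060 and 0.10), and 0.59 in both without the 2 farthest libraries. The negative pair was *arg1.L* with *slc7a1.S*, a cationic amino acid transporter that brings arginine into cells, at r = -0.50 (rho -0.54, adjusted p = 0.040 and 0.060), which was negative within all 6 groups. The other 4 of these pairs had a negative r within at least 1 group of 6 libraries.

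**Figure D4:**
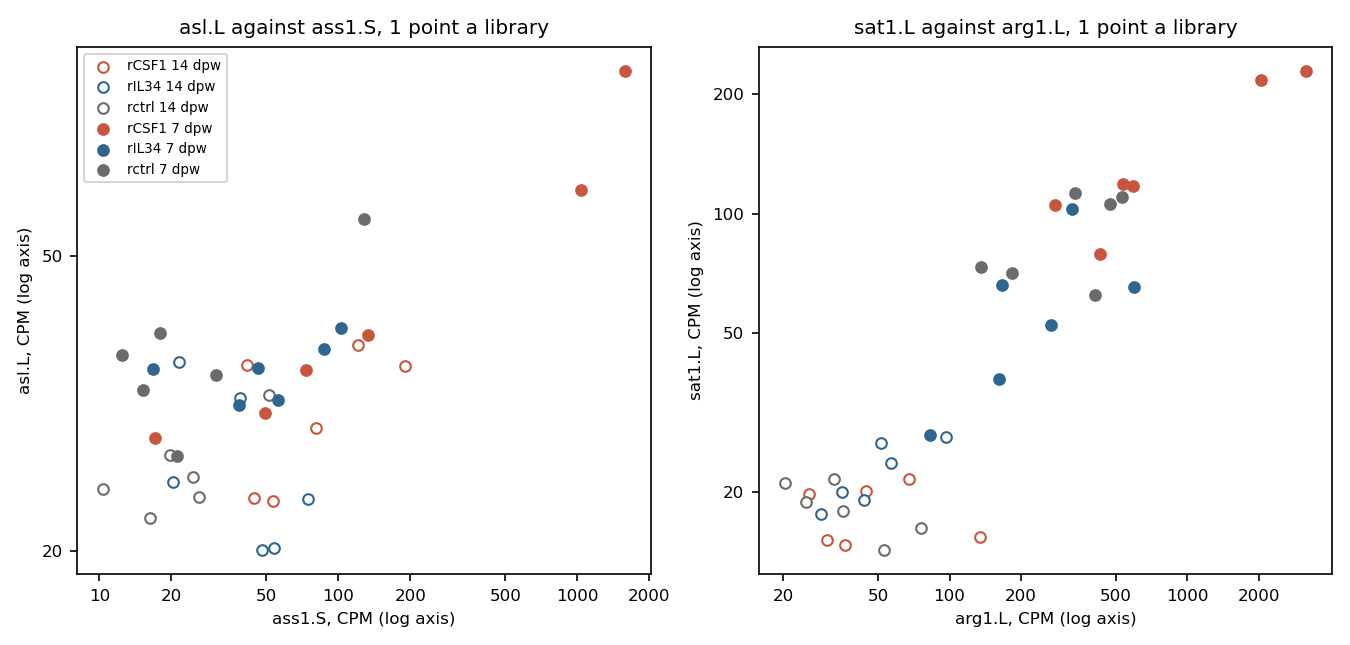
CPM (log axes) of *asl.L* against *ass1.S* and of *sat1.L* against *arg1.L* in the 36 libraries, with colours for treatment, open circles for 14 dpw and filled circles for 7 dpw. Replicates 2 and 5 of rCSF1 at 7 dpw lie at the upper right of both panels, at 1578 and 1034 CPM of *ass1.S* and 3148 and 2042 CPM of *arg1.L*.

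*asl.L* had lower levels at 14 dpw after rCSF1, with a log2FC of -0.61 (adjusted p = 0.015), and in rctrl wounds, with -0.55 (adjusted p = 0.031), and was at -0.43 after rIL34 (adjusted p = 0.093). The rCSF1 value was -0.28 without replicate 2 at 7 dpw (adjusted p = 0.21) and -0.06 without replicates 2 and 5 (adjusted p = 0.80). The rctrl value did not pass when any 1 of 14 dpw replicates 1, 2 and 5 was left out, or 7 dpw replicate 2, which gave -0.40 (adjusted p = 0.12). *ass1.S* after rCSF1 was likewise lower at 14 dpw by -2.44 on the log2 scale (adjusted p = 0.0072), and at 0.43 (adjusted p = 0.59) without replicates 2 and 5. Without the 3 libraries with muscle transcripts the rCSF1 values were -0.44 for *asl.L* and -1.86 for *ass1.S* (adjusted p = 0.18 and 0.13). The arginine transporter rows *slc7a1.L* and *slc7a1.S* passed in none of the 11 comparisons in edgeR with all libraries, with 4.77 to 16.2 CPM and 2.502 to 11.5 CPM over all libraries. Their largest log2FC values in size were 0.46 for *slc7a1.L*, rCSF1 against rctrl at 7 dpw (adjusted p = 0.17), and 0.71 for *slc7a1.S*, the difference in the rIL34 effect between the days (adjusted p = 0.16).

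The wider pathway was read from a list of 57 further genes in 10 roles, which gave 70 rows, 64 of them tested. Against rctrl at 7 dpw 12 of them stood higher and 8 lower with rCSF1, where over all tested genes 20.4% were higher and 14.1% lower. With rIL34 7 stood higher and 6 lower, where over all tested genes 15.8% were higher and 11.2% lower. Between the cytokines 5 were higher and 3 lower after rCSF1 than after rIL34, beside 9.35% and 8.05%. At 14 dpw the counts were 0 for each cytokine against rctrl in edgeR, and 1 higher and 0 lower for rCSF1 against rIL34. An unadjusted p under 0.05 was reached by 11 rows for rCSF1 against rctrl, 6 for rIL34 against rctrl and 11 for rCSF1 against rIL34. Over all 28225 tested genes it was reached by 3098, 2252 and 3788. Of the 37 named rows, which were chosen for small adjusted p, DESeq2 called 0, 0 and 4 and voom 0, 0 and 3. Over time 18 pathway rows rose by 14 dpw and 23 fell in rCSF1-administered wounds. In rIL34-administered wounds 14 rose and 25 fell, and in rctrl wounds 15 rose and 20 fell. Over all tested genes 54.3%, 47.5% and 49.3% passed in either direction. The pathway rows' median log2FC values in these 3 comparisons were 0.13, -0.15 and 0.06.

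Polyamine breakdown had 2 of 4 rows higher and 0 lower after rCSF1 than in rctrl wounds at 7 dpw, where 20.4% of all tested genes were higher. Spermine oxidase, which turns spermine back to spermidine, is present as *smox.L* and a second row named *SMOX*. At 7 dpw *smox.L* had lowest, median and highest CPM of 37.1, 95.1 and 172 after rCSF1, 27.5, 49.5 and 117 after rIL34, and 18.5, 27.5 and 40.7 in rctrl wounds. The log2FC was 1.85 for rCSF1 over rctrl (SE 0.30, adjusted p = 4.2e-05) and 1.03 for rIL34 over rctrl (SE 0.30, adjusted p = 0.0097). Without rCSF1 replicates 2 and 5 the first was 1.32 (adjusted p = 0.0036), and the second was 0.69 without rIL34 replicate 5 (adjusted p = 0.066). *SMOX* had a log2FC of 1.75 for rCSF1 over rctrl (SE 0.32, adjusted p = 0.00013) and 1.27 without both replicates (adjusted p = 0.0092). For rIL34 against rctrl at 7 dpw *SMOX* did not pass. Both fell by 14 dpw after rCSF1, by 2.49 for *smox.L* and 3.29 for *SMOX* on the log2 scale (adjusted p = 1.3e-07 and 6.4e-09). In rctrl wounds *smox.L* was at -0.63 over the same time (adjusted p = 0.079), and the rCSF1 effect at 14 less that at 7 dpw was -1.86 (SE 0.42, adjusted p = 0.0059). For *SMOX* that difference was -1.11 (adjusted p = 0.081). After rIL34 both rows passed as lower at 14 dpw as well. Their medians at 14 and 7 dpw were 18.4 and 49.5 CPM for *smox.L* and 12.6 and 62.8 CPM for *SMOX*. In rctrl wounds the *SMOX* medians were 8.32 against 31.5 CPM, and the days did not overlap. *paox.L*, the oxidase of acetylated polyamines, was higher at 14 dpw after rIL34, by 1.02 (adjusted p = 1.6e-05). Its medians at 14 and 7 dpw were 10.5 and 7.28 CPM in rctrl wounds, where the rise also passed. After rCSF1 they were 8.41 and 6.30 CPM, and the rise did not pass. *sat2.L* passed in no comparison.

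**Figure D5:**
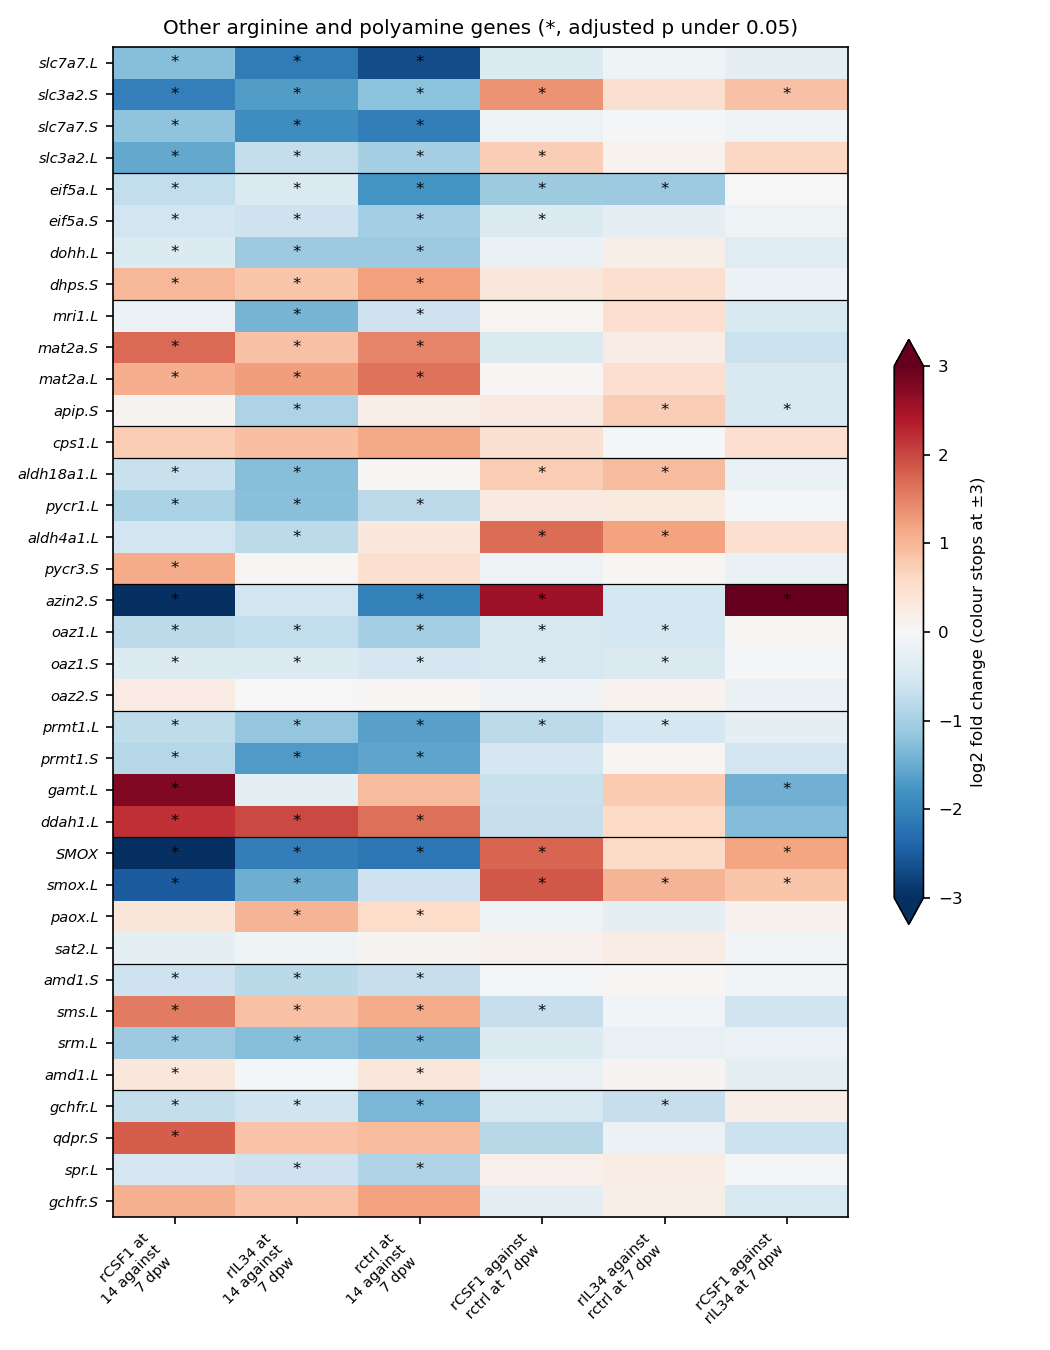
Log2FC (colour, ending at 3 in size) of 37 pathway rows in 6 comparisons, with black lines between roles and stars at an adjusted p under 0.05. *smox.L* and *SMOX* are higher after rCSF1 than in rctrl wounds at 7 dpw, at 1.85 and 1.75, and *eif5a.L* is lower, at -1.06.

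eIF5A is the one protein known to carry hypusine, an amino acid made from spermidine. *eif5a.L* was at 535, 609 and 1021 CPM after rCSF1 (lowest, median and highest), 436, 681 and 909 CPM after rIL34, and 1158, 1412 and 1629 CPM in rctrl wounds at 7 dpw, with no cytokine library reaching the lowest rctrl library. Its log2FC values against rctrl were -1.06 after rCSF1 (SE 0.16, adjusted p = 1.9e-05) and -1.08 after rIL34 (SE 0.16, adjusted p = 1.1e-05), and the rCSF1 value was -0.97 without replicates 2 and 5 (adjusted p = 0.00072). It fell by 1.80 on the log2 scale at 14 against 7 dpw in rctrl wounds (adjusted p = 1.8e-10). *eif5a.S* was at -0.41 after rCSF1 at 7 dpw (adjusted p = 0.0032). Of the enzymes that make hypusine, *dhps.S* was higher at 14 dpw in rctrl wounds (1.24, adjusted p = 3.4e-05) and *dohh.L* lower (-1.09, adjusted p = 8.6e-06). For both this was the comparison with the smallest adjusted p.

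Summed proliferation markers (20 rows, 16 tested) were at 141 to 464 CPM after rCSF1, 294 to 779 CPM after rIL34 and 460 to 649 CPM in rctrl wounds at 7 dpw, with 15 lower and 0 higher after rCSF1 and 0 lower and 1 higher after rIL34. Epidermal sums were 4330 to 11388 CPM after rCSF1, 6464 to 10060 CPM after rIL34 and 2670 to 6791 CPM in rctrl wounds, with 7 and 10 of 11 rows higher. The part of these cells in the *smox.L* and *eif5a.L* differences was not tested.

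Of the antizyme group, *azin2.S*, a relative of antizyme inhibitor 1, had a log2FC of 2.54 for rCSF1 over rctrl at 7 dpw (adjusted p = 0.00078), and 0.86 without replicates 2 and 5 (adjusted p = 0.22). Its highest rCSF1 library was at 998 CPM and its median at 209.8 CPM, against a rctrl median of 54.3 CPM. The gene oaz1 encodes an antizyme that binds ornithine decarboxylase, and RefSeq lists its copy *oaz1.L* as a transcribed pseudogene. *oaz1.L* was lower in both comparisons with rctrl, at -0.48 after rCSF1 and -0.53 after rIL34 (adjusted p = 0.016 and 0.011). Its rCSF1 value was -0.34 without replicates 2 and 5 (adjusted p = 0.16). The protein-coding copy *oaz1.S* passed as lower than rctrl at 7 dpw after each cytokine too. Its medians were 250 CPM after rCSF1, 265 CPM after rIL34 and 372 CPM in rctrl wounds. Of 4 rows for polyamine synthesis, *sms.L*, spermine synthase, was lower after rCSF1 at 7 dpw, by -0.68 (adjusted p = 0.038), and at -0.32 without replicates 2 and 5 (adjusted p = 0.30). At 14 against 7 dpw in rctrl wounds *srm.L*, spermidine synthase, fell by 1.39 on the log2 scale (adjusted p = 1.5e-05). *sms.L* rose there by 1.12 (adjusted p = 0.00052), with medians of 65.8 CPM at 14 dpw and 27.5 CPM at 7 dpw. The copies of amd1, which supplies the aminopropyl groups, went opposite ways in rctrl wounds. There *amd1.L* was at 0.34 (adjusted p = 0.044), and *amd1.S* had medians of 46.3 CPM at 14 dpw and 73.0 CPM at 7 dpw. After rIL34 *amd1.S* was at -0.81 (adjusted p = 4.2e-06), while *amd1.L* had medians of 150 CPM at 14 dpw and 158 CPM at 7 dpw.

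In transport, 5 of 12 rows were higher and 0 lower after rCSF1 than in rctrl wounds at 7 dpw, where 20.4% of all tested genes were higher. *slc3a2.S*, the heavy chain that carries several amino acid transporters to the cell surface, had a log2FC of 1.35 (adjusted p = 0.00049), and 0.47 without replicates 2 and 5 (adjusted p = 0.11). *slc7a7.L*, a light chain that exports cationic amino acids and is known from macrophages in mammals, was lower at 14 dpw in rctrl wounds (log2FC -2.66, adjusted p = 5.7e-07). This was the comparison with its smallest adjusted p. In proline synthesis from glutamate, *aldh18a1.L* was higher in both cytokine groups at 7 dpw, with log2FC values of 0.77 after rCSF1 (adjusted p = 0.00093) and 0.96 after rIL34 (adjusted p = 0.00013). Its rIL34 libraries, at 44.7 to 85.5 CPM, were all above its rctrl libraries, at 22.9 to 40.0 CPM, and its rCSF1 value was 0.48 without replicates 2 and 5 (adjusted p = 0.057). *aldh4a1.L*, of proline breakdown, was higher after rCSF1 by 1.67 (adjusted p = 0.0003) and after rIL34 by 1.197 (adjusted p = 0.0072), and the first was 0.76 without replicates 2 and 5 (adjusted p = 0.061).

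Among other arginine users and side branches, several named rows changed between the days. Each is given only in the comparison where its adjusted p was smallest, so a treatment left out is not one without a change. *prmt1.L*, a protein arginine methyltransferase, fell at 14 dpw in rctrl wounds by 1.62 on the log2 scale (adjusted p = 7.0e-08), and *prmt1.S* fell after rIL34 by 1.71 (adjusted p = 1.6e-07). *ddah1.L*, which clears methylated arginines that inhibit nitric oxide synthase, was higher at 14 dpw after rCSF1, by 2.202 (adjusted p = 0.00039). *gamt.L*, of creatine synthesis, was higher there by 2.77 (adjusted p = 6.1e-06), in the comparison whose 14 dpw libraries held muscle transcripts in 3 of 6. *mat2a.S* and *mat2a.L*, which make S-adenosylmethionine, were higher at 14 dpw, by 1.69 after rCSF1 and by 1.62 in rctrl wounds (adjusted p = 6.5e-06 and 7.6e-06). Of the genes listed under tetrahydrobiopterin, the cofactor of nitric oxide synthase, *gchfr.L* fell at 14 dpw in rctrl wounds by 1.37 (adjusted p = 3.0e-05). Its other copy, *gchfr.S*, went the other way in that comparison but did not pass (adjusted p = 0.070). What either means for the supply of the cofactor was not tested. *cps1.L*, the one tested row of the mitochondrial urea cycle, reached at most 2.63 CPM and passed in no comparison.

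The rows whose pattern was most like that of a member were found by Pearson's r of log2 CPM over the 36 libraries among 19003 rows, as a description. The libraries share treatment, day and the 2 libraries that stood apart. For *arg1.L* they were *selenot.S* (r = 0.95), *zfand6.L* (0.95) and *ctsv.L* (0.95). For *odc1.L* they were *selenot.S* (0.94), *cnn2.L* (0.94) and *tia1.S* (0.93), and for *sat1.L* *jpt1.S* (0.97), *Rnf227* (0.96) and *pmepa1.L* (0.96). *ass1.S* was most like *rnd1.L* (0.89), *alas1.L* (0.85) and *nucb2.S* (0.85). For *arg2.L* the closest was *cdh18.S* at 0.66, followed by *baiap3.L* at 0.59 and *nxph1.L* at 0.58.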

How the data were processed

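RNA was sequenced from 36 wound libraries, 6 in each of 6 groups, and groups were taken from the sample titles. The deposited values are raw read-pair counts per gene, with no normalization: the authors trimmed reads with fastp, mapped them to RefSeq Xenopus_laevis_v10.1 with minimap2 2.29, handled alignments in SAMtools 1.16.1, and assigned pairs to exons with featureCounts 2.1.1. No strand option is named, so genes that overlap on opposite strands may share reads, and L and S copies can share reads. Of 42674 rows, 417 without a gene name were left out (0.628% to 2.08% of counts per library). Names matched RefSeq symbols for 38754 rows.

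Rows with at least 0.5 CPM in at least 10 libraries entered edgeR 4.0.16 (TMM factors, quasi-likelihood test, R 4.3.3) as 1 model of 6 groups. Benjamini-Hochberg adjustment covered the 28225 tested rows, and calls needed an adjusted p under 0.05. The labels do not say whether replicates were separate animals, so p-values measure the spread between these samples. Alternatives were DESeq2 1.42.0, RLE size factors, no filter, the compared groups alone, a replicate block, limma 3.58.1 voom with sample quality weights, summed L and S copies, each library left out, and the libraries that stood apart left out. Named genes are all members, up to 4 pathway rows per role with the smallest adjusted p in any comparison, and the 3 rows most like *arg1.L*, *arg2.L*, *odc1.L*, *ass1.S* (written as ass1.L in this rule for named genes) and *sat1.L*. The members, lists and alternatives were chosen with earlier results of these data known. Correlations of deviations from group means used 100000 permutations within groups. The fit was tested on simulated data.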

Additional observations from a re-analysis of the deposited data

Results flagged for a closer look

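In 13 of the 90 sets of 6 libraries (15 members in 6 groups), 1 library lay far from the nearest other by Dixon's ratio. Chance alone flags about 1 in 20 sets only where values are normally distributed. The ratio was taken on CPM without a log, and every flagged library was a high one. The 13 flags are therefore a description and cannot be set against that share. Single high libraries were found for *nos2.L* in all 3 groups at 7 dpw: rCSF1 replicate 3 at 187 CPM (nearest 35.1), rIL34 replicate 6 at 75.7 CPM (nearest 30.2) and rctrl replicate 2 at 244 CPM (nearest 47.4). That rctrl library also stood out for *nos2.S* at 4.10 CPM (nearest 1.40) and *ass1.S* at 129 CPM (nearest 30.6). rIL34 replicate 1 at 7 dpw was high in both transporter copies, with *slc7a1.L* at 15.4 CPM (nearest 8.76) and *slc7a1.S* at 8.08 CPM (nearest 4.43), and rIL34 replicate 6 at 14 dpw in *slc7a1.S* at 11.5 CPM (nearest 5.76). *arg2.S* was at 15.9 CPM in rCSF1 replicate 5 at 7 dpw (nearest 6.48) and at 36.9 CPM in rCSF1 replicate 4 at 14 dpw (nearest 14.4). *odc1.S* was at 31.4 CPM in rCSF1 replicate 4 (nearest 18.5) and at 29.9 CPM in rctrl replicate 4 (nearest 18.8), both at 7 dpw. *sat1.S* was at 17.6 CPM in rIL34 replicate 4 at 14 dpw (nearest 10.03).

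The effect of rIL34 on *sat1.S* differed between the days, with a difference of 1.34 on the log2 scale (14 less 7 dpw, edgeR adjusted p = 0.016). It was 0.84 at 14 dpw and -0.50 at 7 dpw, and neither of these passed alone.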

How the results depend on the processing

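Over 165 member results, 3582 values were recomputed under 45 settings. Of these, 3483 kept their side of the threshold, 58 no longer passed, 37 passed newly and 4 reversed. A value counted as reversed when its direction changed and it passed in the main fit or under the setting. Changes of direction where neither passed were left among the 3483. The reversed values were *odc1.L* for rCSF1 against rctrl at 7 dpw without rCSF1 replicates 2 and 5 (-0.010), *ass1.S* for rCSF1 at 14 against 7 dpw with voom (0.14) and without those replicates (0.43), and arg2 in rctrl wounds at 14 against 7 dpw with copies summed (0.82, against -0.19 for *arg2.L*). Members called for rCSF1 against rctrl at 7 dpw were 4, and 1 in the compared groups alone, 0 with voom, 0 without replicates 2 and 5 and 1 to 4 leaving out 1 library. For rIL34 against rctrl at 7 dpw they were 0, and 2 with DESeq2, 1 with RLE, 1 with no filter, 3 with voom and 0 to 2 leaving out 1 library. For rCSF1 against rIL34 at 7 dpw they were 4, and 0 in the compared groups alone, 1 with voom, 1 without replicates 2 and 5 and 3 to 5 leaving out 1 library. At 14 dpw voom called 1 for rCSF1 against rIL34. The rCSF1 difference between days had 0 calls and 0 to 1 leaving out 1 library (1 without rCSF1 replicate 3 at 7 dpw). The rIL34 difference had 1, and 2 with DESeq2, 2 in the compared groups alone, 2 with voom and 1 to 2 leaving out 1 library (2 without rIL34 replicate 1 or 5 at 7 dpw). The cause was not tested beyond the settings' own construction.

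Replicate numbers do not pair the libraries: same-numbered libraries of other groups had a median correlation of -0.01 (-0.27 to 0.38), and 4 of 36 matched their own number best. With replicate numbers as a block, 2 members were called for rIL34 against rctrl at 7 dpw, 3 for rCSF1 against rIL34 at 7 dpw and 7 for rCSF1 at 14 against 7 dpw. The block left the count of members as it was in the other 8 comparisons. Counts cover sampling depth of 22435798 to 34868292 per library, which limits *nos2.S* and other rows near 1 CPM most.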

Other observations

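The slc7a2 transporter rows, which stand in the table under numbered names outside the rule, were chosen after their values were seen. *slc7a2.1.L* was at 11.9, 14.6 and 24.7 CPM (lowest, median and highest) at 14 dpw after rCSF1, 14.0, 15.7 and 18.5 CPM after rIL34 and 10.98, 14.0 and 17.3 CPM in rctrl wounds. At 7 dpw it was at 1.26, 1.63 and 3.64 CPM after rCSF1, 2.52, 6.27 and 11.3 CPM after rIL34 and 1.91, 4.17 and 4.85 CPM in rctrl wounds, so that the days did not overlap in any treatment. The log2 fold changes at 14 against 7 dpw were 2.91, 1.25 and 1.87 (edgeR adjusted p = 5.7e-09, 0.00048 and 2.3e-06). At 7 dpw it was lower after rCSF1 than in rctrl wounds (-0.86, adjusted p = 0.020) and higher after rIL34 (0.82, adjusted p = 0.029). Replicates 2 and 5 of rCSF1 at 7 dpw were at 1.28 and 1.26 CPM, and no value without them was taken for this row. The homeolog *slc7a2.1.S* of this cationic amino acid transporter gene was also higher at 14 dpw, by 1.93, 1.78 and 2.52 on the log2 scale (adjusted p = 0.0009, 0.0019 and 4.8e-05). Its medians at 7 dpw were 1.48 CPM after rCSF1, 2.09 CPM after rIL34 and 1.49 CPM in rctrl wounds. *slc7a2.2.L* had medians of 0.314, 0.635 and 0.950 CPM at 14 dpw after rCSF1, after rIL34 and in rctrl wounds. At 7 dpw these were 0.567, 0.252 and 0.343 CPM.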
